A study of Mus musculus with 96 samples.

Results

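The 6 genes T, Mixl1, Eomes, Fgf8, Wnt3 and Cdx2 of the early primitive streak and mesendoderm were followed across 61 single mouse embryonic stem cells. They were taken by symbol from the 36205 gene rows of the deposited raw count table, and all 6 of 6 were found once and kept 10 or more counts in at least 10 cells. The cells belong to the E14 embryonic stem cell line, labelled wild-type and C57BL/6, and grew in serum/LIF, a medium of serum and leukaemia inhibitory factor. RNA and DNA of each cell were separated by G&T-seq, and Nextera XT libraries were sequenced from the RNA. The labels list 76 serum/LIF wells, of which 61 had counts here; 16 wells of 2i cells and 4 wells without a cell were not analysed here. Each sample is 1 cell and no label names separate cultures, so the values describe cells of 1 line in 1 medium, and no p-value was made from them.

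In the mouse embryo the primitive streak forms at the posterior epiblast, where Wnt, Nodal, Bmp and Fgf signals meet and cells leave the epiblast as mesoderm and endoderm. Wnt3 is the ligand that starts the streak, and Fgf8 is needed for cells to move away from it. T (brachyury) and Eomes are T-box transcription factors, Mixl1 is a homeobox factor of mesendoderm, and Cdx2 is a homeobox factor of posterior mesoderm and, earlier, of trophectoderm. Embryonic stem cells in serum/LIF are a mixed population in which some cells carry transcripts of such genes beside those of pluripotency factors. Pou5f1, the core pluripotency factor, had counts in 61 of 61 cells here and Sox2, its partner, in 54.

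Promoter sequences were read for T, Wnt3 and Cdx2, because T and Wnt3 had counts in the most cells and Cdx2 held the rarest of the motifs searched. Each runs 5′ to 3′ on the gene's own strand, from 250 bases before the start to 50 bases after it, as RefSeq gives it on GRCm38.p6. Capitals mark the motifs that were found on either strand.
T promoter, chr17:8434173-8434472, plus strand: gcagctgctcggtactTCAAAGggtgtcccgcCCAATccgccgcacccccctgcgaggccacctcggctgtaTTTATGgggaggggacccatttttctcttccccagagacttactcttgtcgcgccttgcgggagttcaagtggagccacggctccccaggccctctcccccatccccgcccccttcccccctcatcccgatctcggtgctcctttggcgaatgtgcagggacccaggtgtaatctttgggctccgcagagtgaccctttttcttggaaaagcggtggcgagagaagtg
Wnt3 promoter, chr11:103773925-103774224, plus strand: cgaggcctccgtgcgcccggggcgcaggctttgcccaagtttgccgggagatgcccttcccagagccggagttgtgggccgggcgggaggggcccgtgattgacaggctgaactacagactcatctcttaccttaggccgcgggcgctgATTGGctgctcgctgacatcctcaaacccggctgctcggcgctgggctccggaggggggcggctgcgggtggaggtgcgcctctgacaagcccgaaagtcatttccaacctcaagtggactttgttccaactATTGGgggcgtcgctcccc
Cdx2 promoter, chr5:147307200-147307499, minus strand: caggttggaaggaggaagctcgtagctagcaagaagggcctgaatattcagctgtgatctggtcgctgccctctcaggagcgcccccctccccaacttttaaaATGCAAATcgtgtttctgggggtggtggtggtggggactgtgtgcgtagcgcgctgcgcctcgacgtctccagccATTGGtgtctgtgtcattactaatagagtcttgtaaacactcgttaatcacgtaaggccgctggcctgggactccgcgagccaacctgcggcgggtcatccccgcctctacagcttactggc

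The motifs were chosen after the sequences had been seen, so a match is a description and not a binding site. The T window holds the TCF/LEF core CTTTGA, written on the other strand, at bases -234 to -229 from the start, and 16% of 32851 RefSeq promoters of the same length hold it. It also holds the CDX site TTTATG at -178 to -173, found in 11.9% of promoters. The Cdx2 window holds the octamer ATGCAAAT at -147 to -140, found in 1.74% of promoters. The CCAAT box CCAAT lies in all 4 members' windows that were matched, T, Wnt3, Cdx2 and Eomes, and in 37.4% of promoters. The motifs TATAAA (13.6% of promoters) and GGTGTGA, a T-box half-site (3.98%), are not among the letters of these 4 windows. No motif searched overlaps another in these windows. GC content was 65.7% for Wnt3, 61.7% for T, 57.3% for Cdx2 and 47.3% for Eomes, against a median of 52.7% over all promoters. Promoter windows of Mixl1 and Fgf8 were not used here.

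The 2 ligands differed in how many cells carried them. Wnt3 (ENSMUSG00000000125, chr11:103774150-103817957, plus strand) had counts in 44 of 61 cells, or 72.1% with an exact 95% binomial interval of 59.2% to 82.9%. Its level ran from 0 through a median of 38.6 to 603 CPM, the counts of a gene scaled to a library of 1000000, with the highest value in well A05 at 4094 counts. Wnt3 was the most widely detected of the 6 genes, and the next cells were F05 at 510, G09 at 500 and A09 at 464 CPM. Fgf8 (ENSMUSG00000025219, chr19:45736798-45742915, minus strand) had counts in 25 cells, or 41% with an interval of 28.6% to 54.3%. Its median over all cells was therefore 0, and its highest level was 771 CPM in D07. The next Fgf8 values were 662 CPM in A04, 600 CPM in D02, 559 CPM in F05 and 512 CPM in D04. Fgf8 was thus at 0 in 36 of 61 cells and high in a few.

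Among the T-box factors, T was found in more cells than Eomes. T (ENSMUSG00000062327, chr17:8434423-8442496, plus strand) had counts in 40 of 61 cells, or 65.6% with an interval of 52.3% to 77.3%. Its median was 32.7 CPM and its highest value 806 CPM, or 4387 counts, in D04. The next T values were 690 CPM in F06, 599 CPM in D07, 536 CPM in G10 and 456 CPM in A03, so high T was not held by a single cell. Eomes (ENSMUSG00000032446, chr9:118478212-118486132, plus strand) had counts in 25 cells, as many as Fgf8, and its highest value was 138 CPM, or 349 counts, in F06. The next Eomes values were 98.4 CPM in D07 and 72 CPM in E07. The annotated antisense gene Gm33460 overlaps the end of Eomes and has no row in the table. Whether strand was used in counting is not stated, so reads of Gm33460 cannot be told apart from those of Eomes.

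The homeobox factors were each found in fewer cells still. Mixl1 (ENSMUSG00000026497, chr1:180693043-180697034, minus strand) had counts in 17 of 61 cells, or 27.9% with an interval of 17.1% to 40.8%. Its highest value was 2882 CPM, or 6969 counts, in D07, followed by 278 CPM in C03, 203 CPM in F04 and 94 CPM in G05. The cell in D07 held 77.2% of the Mixl1 CPM summed over cells, against a median of 10.2% in the top cell over the 10868 tested genes. Those genes had counts in a median of 43 cells, so they were found more widely than Mixl1. Cdx2 (ENSMUSG00000029646, chr5:147300805-147307270, minus strand) had counts in 18 cells, or 29.5% with an interval of 18.5% to 42.6%. Its highest values were 287 CPM in A04, 228 CPM in D04 and 213 CPM in C03, and it was at 0 in D07. The cells at the top of Mixl1 and of Cdx2 were thus different ones, except that C03 was among the 3 highest for both.

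**Figure D1:**
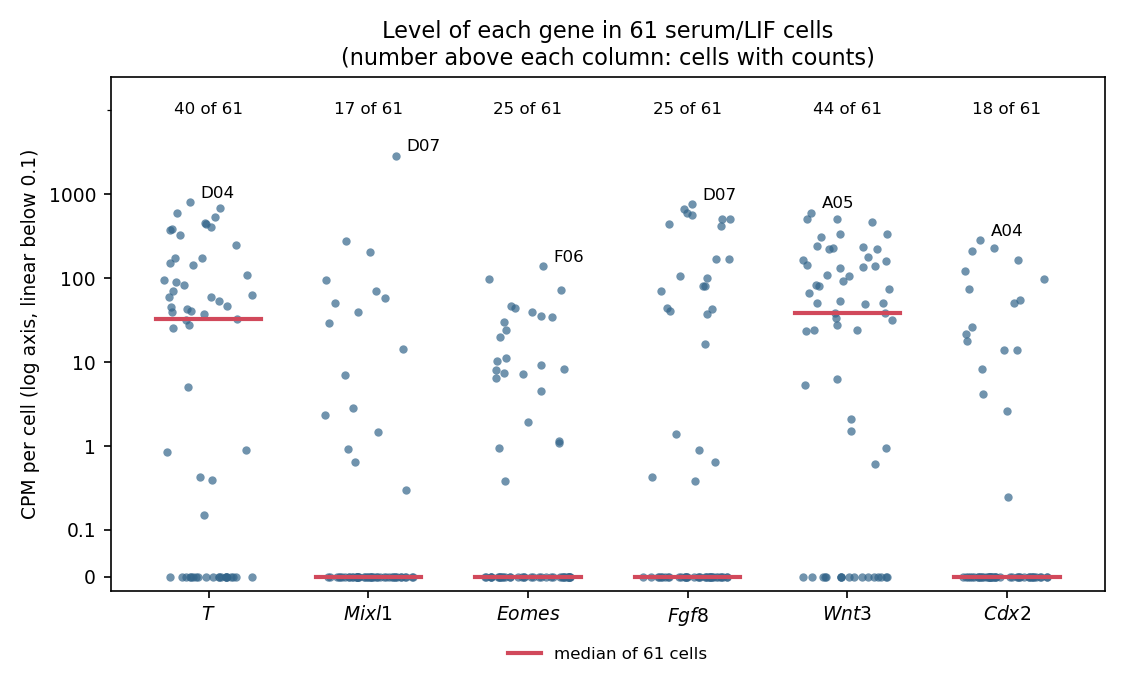
Level of each of the 6 genes in CPM (vertical axis, logarithmic above 0.1) in 61 serum/LIF cells; each point is 1 cell, the red line is the median, and the well of the highest cell is written beside it. T and Wnt3 have medians of 32.7 and 38.6 CPM, the other 4 genes have a median of 0, and the Mixl1 value of 2882 CPM in D07 stands apart.

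Cells with few counts were a small part of those detected. Between 1 and 9 counts were seen in 5 cells for T, 5 for Eomes, 5 for Fgf8, 3 for Mixl1, 3 for Wnt3 and 1 for Cdx2. With 10 or more counts required, T was found in 35 cells, Mixl1 in 14, Eomes in 20, Fgf8 in 20, Wnt3 in 41 and Cdx2 in 17. At the median depth, 3 counts correspond to 0.707 CPM, so a 0 limits the level in the sequenced library to about that value. It does not limit the level in the cell, since transcript lost before sequencing was not measured, and it is not an absence of transcript. The high values were also concentrated: the top 5 cells held 94.5% of the summed CPM of Mixl1, 72.4% of Cdx2, 60.4% of Eomes, 57.2% of Fgf8, 44.3% of T and 38.1% of Wnt3. The median over tested genes was 36.9%, so Wnt3 was about as concentrated as a typical tested gene and Mixl1 far more. Tested genes had counts in a median of 43 cells, near the 44 of Wnt3 but well above the 17 of Mixl1. Genes found in as few cells as Mixl1 were not compared apart.

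Levels can be compared between genes only per length of exon. Mean levels were 65.9 ± 142 CPM per kb for Fgf8, 49.4 ± 82.2 for T, 33.7 ± 46.9 for Wnt3, 26.7 ± 161 for Mixl1, 10.2 ± 26.3 for Cdx2 and 2.62 ± 6.02 for Eomes (SD over 61 cells). In this order each pair of neighbours differs by less than the larger of their SDs between cells, though Cdx2 and Eomes differ by more than the SD of Eomes. The SD exceeds the mean in each of the 6 genes. The place of Mixl1 rests on D07. Eomes, with the lowest mean of the 6, was detected in more cells than Mixl1 and Cdx2, so the order by level and the order by number of cells are not the same.

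The 6 genes were found together in some cells and missing together in others. All 6 had counts in 4 cells, in wells A04, A05, F04 and F05. Of the other cells, 8 had counts of 5 members, 10 had 4, 13 had 3, 8 had 2, 10 had 1 and 8 had none. With 10 or more counts required, 4 cells had all 6 members, 6 had 5 and 13 had none. In A04 the values were 164 CPM for Wnt3, 662 for Fgf8, 174 for T, 14.5 for Mixl1, 44.6 for Eomes and 287 for Cdx2. In F05 they were 510 CPM for Wnt3, 559 for Fgf8, 172 for T, 50.5 for Mixl1, 11.2 for Eomes and 4.14 for Cdx2. Both cells were thus high for the ligands and T, while only A04 was high for Cdx2. The member missing from a cell with 5 was Eomes in C03, D04 and G09, Mixl1 in A02 and E07, Cdx2 in D07 and H09, and Fgf8 in F09. No cell with 5 lacked T or Wnt3. Some members had few counts in these cells, with 2 each of Eomes and Fgf8 in A02 and 3 of Fgf8 in H09.

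Cells with 1 member mostly carried a ligand or T. Wnt3 was the only member in 6 cells, in wells A10, C04, E02, E05, G07 and H10, and T the only one in 3, B10, F01 and H02. Wnt3 had only 4 counts in C04, and T only 2 in F01. Cdx2 was alone in 1 cell, C05, with 1 count. Neither Mixl1, Eomes nor Fgf8 was found alone in any cell. Wnt3 was present in 16 of the 17 cells with Mixl1 and in 23 of the 25 with Fgf8, and T was present in 22 of the 25 with Fgf8. Since Wnt3 had counts in 44 and T in 40 of all 61 cells, a large overlap with these genes is a description only.

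**Figure D2:**
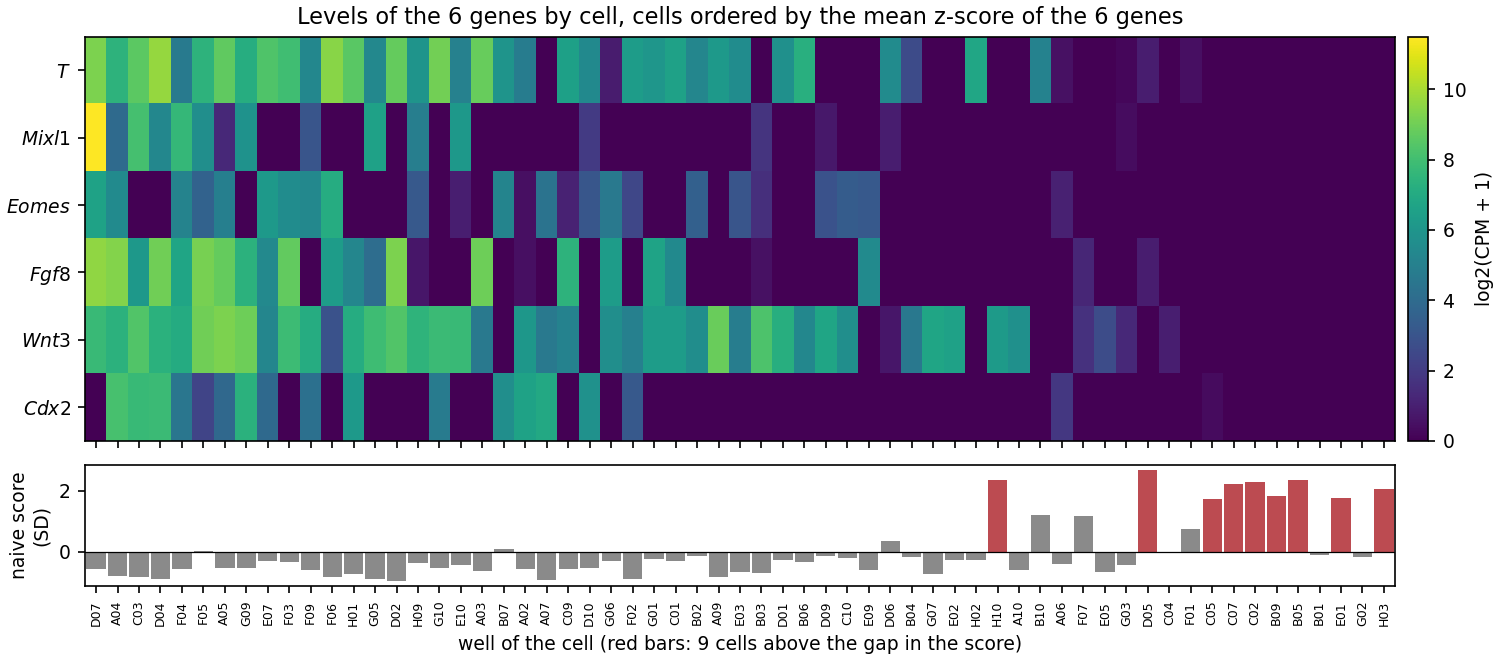
Levels of the 6 genes (rows, log2(CPM + 1), colour) in the 61 cells (columns, named by well), ordered by the mean z-score of the 6 genes, with the naive pluripotency score of each cell below in SD units. D07, A04 and C03 lead the order, and of the 9 cells with a score above the gap (red bars) only H10 has a gene of the 6 above 1 CPM.

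The levels also varied together across cells. The Spearman rho of log2(CPM + 1) over 61 cells was highest for T with Fgf8, at 0.61. It was 0.54 for Mixl1 with Wnt3, 0.53 for Fgf8 with Wnt3 and 0.52 for T with Wnt3, so these 4 pairs were made of the ligands, T and Mixl1. The lowest values were 0.23 for Eomes with Wnt3, 0.25 for Fgf8 with Cdx2 and 0.26 for Wnt3 with Cdx2. No pair was negative. The median over the 15 pairs was 0.34, and 10 pairs (66.7%) were at 0.3 or more; over all 59051278 pairs of tested genes the median was 0.01 and 1.97% were at 0.3 or more. These rho are descriptions over cells of 1 line that share library preparation, with many values tied at 0.

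Each gene was also set against the mean z-score of the other 5. The rho was 0.65 for T, 0.61 for Fgf8, 0.60 for Wnt3, 0.47 for Mixl1, 0.44 for Eomes and 0.43 for Cdx2, so 6 of 6 were at 0.3 or more. Of 10862 other tested genes, 818 (7.53%) reached 0.3 with the mean z-score of the 6. Without D07 the values were 0.63 for T, 0.58 for Fgf8, 0.59 for Wnt3, 0.43 for Mixl1, 0.42 for Eomes and 0.46 for Cdx2. In plate rows A to D they ran from 0.33 for Cdx2 to 0.65 for T. In rows E to H they ran from 0.36 for Mixl1 to 0.65 for T and Wnt3. All 6 thus stayed at 0.3 or more in each part of the plate. More of the 10862 other tested genes also reached 0.3 with the mean of the 6 there, 1231 in rows A to D and 1403 in rows E to H. Among 10737 genes ranked by rho, Fgf8 was rank 12 for T, T was rank 5 for Fgf8 and Wnt3 was rank 5 for Mixl1. Eomes was not near the top for any other member, with its best rank, 226, for Fgf8.

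**Figure D3:**
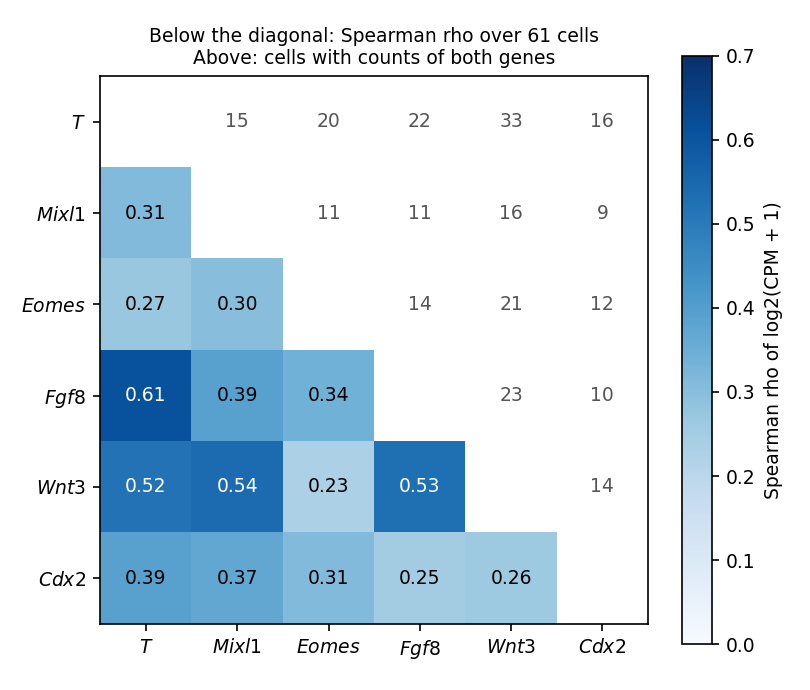
Spearman rho of log2(CPM + 1) over 61 cells for each pair of the 6 genes (below the diagonal, colour and number) and the number of cells with counts of both genes (above the diagonal). T with Fgf8 is highest at 0.61, and the pairs of Eomes and Cdx2 with Wnt3 are among the lowest.

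One cell stood out for genes that follow the streak. D07 had the smallest library, with 2417702 counts, and 9113 genes detected, above the median of 8404. It had 6969 counts of Mixl1, 1865 of Fgf8, 1448 of T, 532 of Wnt3 and 238 of Eomes, and none of Cdx2. Of 16 other streak and nascent mesoderm factors listed, it was the highest cell by counts for 6. By CPM, Evx1 was also highest in D07. Msgn1, a factor of paraxial mesoderm, had 496 counts in D07 and 25 in the only other cell with counts. Mesp1, a factor of the earliest mesoderm, had 274 and 41, and its neighbour Mesp2 had 240 and 15. Gsc, the organizer factor goosecoid, had 52 counts in D07 and none in another cell, and Lhx1 had 72 counts there and 40 in 1 other cell. Snai1, a repressor of E-cadherin, had 138 counts against at most 21 in 7 other cells.

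The same cell was also highest for Rspo3, a Wnt agonist, with 549 counts against 251 in the next cell. Gata6, a factor of mesendoderm as well as of primitive endoderm, had 504 counts against 99. Its pluripotency transcripts were low: Pou5f1 was at 201 CPM, against a median of 1152 CPM, and 56 cells were higher. Sox2 was at 1.65 CPM and 50 cells were higher, while Nanog was at 30.6 CPM with 39 cells higher. Klf4 was at 25.2 CPM with 10 cells higher, so not every pluripotency gene was low there. D07 had counts of 8 of the 16 streak factors and was at 0 for Foxa2, Tbx6, Cdx1, Cdx4, Nkx1-2, Hhex, Sox17 and Hoxb1. These are values of 1 cell, with no replicate. The cell in A06, with a mean z-score of -0.591 over the 6 genes, was the highest for Hhex (167 counts), Sox17 (126) and Hoxb1 (221), and for Tal1 and Foxc1 of later mesoderm. It had 2 counts of T, 5 of Eomes and 12 of Cdx2, so its values of the 6 genes were low.

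Most of the downstream factors had counts in few cells. Of the 16 streak factors, 10 had counts in 1 to 5 cells and 1, Sp5, a Wnt target and zinc finger factor, passed the filter. Sp5 had counts in 39 cells, a highest level of 111 CPM in A07 and a rho of 0.55 with the mean z-score of the 6 genes. Evx1, a posterior streak factor, had counts in 10 cells, with 244 counts in D04 and 121 in the smaller library of D07. Its highest level was 50 CPM, in D07. Cdx1 and Cdx4, the paralogs of Cdx2, had counts in 11 and 10 cells. Of 12 genes of later mesoderm, 6 (Meox1, Foxc2, Foxf1, Hand2, Nkx2-5 and Tbx1) were at 0 in all 61 cells, which allows a share of up to 4.92% of cells with a count. The one that passed the filter, Tcf15, was in 28 cells and had a rho of -0.04.

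Other genes of the signalling pathways were read from lists by role, each against the mean z-score of the 6 genes. Inhibitors had the highest median rho of the roles with more than 1 tested gene, 0.31 over 9 tested of 15, and 5 were at 0.3 or more. They were the Nodal antagonists Lefty1 (0.56) and Lefty2 (0.33), the Fgf feedback phosphatase Dusp6 (0.45), the activin antagonist Fst (0.38) and the Wnt feedback gene Axin2 (0.31). Lefty1 reached 3493 CPM in F05, a cell with all 6 genes, and had a median of 46.3 CPM. Of 13 tested receptors, 3 were at 0.3 or more: the Wnt receptor Fzd10 (0.59), the coreceptor Lrp6 (0.44) and Fgfr1 (0.37), with a median of 0.25. The Nodal coreceptor Tdgf1 was at 0.10. Of 11 transducers, 2 were at 0.3 or more, Tcf7 (0.35) and the Nodal cofactor Foxh1 (0.33), while beta-catenin, Ctnnb1, was at 0.21. The median over all 10862 genes was 0.02, and 818 of them (7.53%) were at 0.3 or more.

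Other ligands pointed both ways. Of 8 tested, Wnt5b was at 0.46 and had counts in 15 cells. Fgf4, an Fgf of undifferentiated stem cells, was at -0.38 and Gdf3, a Tgf-beta family ligand of such cells, at -0.34. At -0.3 or less were 480 of 10862 tested genes (4.42%). Nodal was at 0.24, Wnt8a at 0.19 and Bmp4 at 0.01, and Wnt3a, a later streak ligand, had counts in 1 cell.

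Part of this depended on 9 cells that stood apart for naive pluripotency genes. The naive score was the mean z-score of 13 tested genes of 17 listed, such as Zfp42, Esrrb and Klf2, and it had its largest gap between 1.21 and 1.72, with 52 cells below and 9 above. In the 52 cells alone, 7 of the 15 member pairs were at 0.3 or more, with a median of 0.30. The share of all pairs of tested genes at 0.3 or more was not counted in the 52 cells. The 7 pairs thus cannot be called more than other genes would give there. In the same cells, 6 of 6 members kept 0.3 or more with the other 5. T was then at 0.58, Fgf8 at 0.58, Wnt3 at 0.51, Mixl1 at 0.42, Cdx2 at 0.40 and Eomes at 0.31. Of tested genes, 4.80% were at 0.3 or more with the mean of the 6 in these cells. Of the receptors only Fzd10 (0.63) then reached 0.3, of the inhibitors Lefty1 (0.49) and Lefty2 (0.35), and of the transducers none. Among ligands Wnt5b (0.41), Fgf17 (0.41) and Nodal (0.34) reached it, and Sp5 was at 0.49. Fzd10, the Lefty genes, Wnt5b and Sp5 were thus at 0.3 or more in both sets of cells. None of the 8 tested ligands was at -0.3 or less in the 52 cells. Fgf4 was at -0.18 there, and Gdf3, at -0.30 after rounding, fell just short.

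In the 9 cells above the gap the 6 genes were at or near 0. Mixl1 and Eomes were at 0 in 9 of 9 cells, which allows a share of up to 33.3%. Below the gap they had counts in 17 and 25 of 52 cells. The 9 cells had from 6430 (H10) to 9155 (C07) genes detected, against a median of 8404 over all cells. How many other tested genes were at 0 in all 9 was not counted, so the zeros cannot be called particular to the 6 genes. D05 had 3 counts of T and 3 of Fgf8, and C05 had 1 count of Cdx2. Wnt3 was the exception, with 292 counts, or 74.9 CPM, in H10, whose score was 2.37. Of these 9 cells, 6 (B05, B09, C02, C07, E01 and H03) had no counts of any of the 6. The other 2 cells without any, B01 and G02, lay below the gap, with scores of -0.0906 and -0.161, above the median of -0.342. A score below the gap thus did not go with counts in each cell. All 9 cells above the gap had a chromosome 14 share of counts under the median of 3.06%, from 1.32% in E01 to 3% in C05, and 5 of them were among the 7 cells with the lowest shares. The part of this in the low values was not tested.

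Within the 52 cells below the gap, the rho with the naive score was -0.41 for Wnt3, -0.33 for Fgf8, -0.32 for Cdx2, -0.30 for T, -0.21 for Mixl1 and -0.10 for Eomes. At -0.3 or less were 4 of 6 members, and 354 of 10849 tested genes (3.26%). The count rests on values near the threshold: it was 2 without F07, with the highest mitochondrial share, and B10, with the fewest detected genes. These cells also had the 2 highest scores below the gap, 1.18 and 1.21, above the next-largest gap of 0.435 in the score, which is close to the largest gap of 0.507. The count was 0 in the 25 cells below the gap in plate rows E to H. Wnt3 was at -0.61 in rows A to D and -0.18 in rows E to H, and Fgf8 was at -0.62 and 0.08. With Esrrb alone in place of the score, no member was at -0.3 or less.

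**Figure D4:**
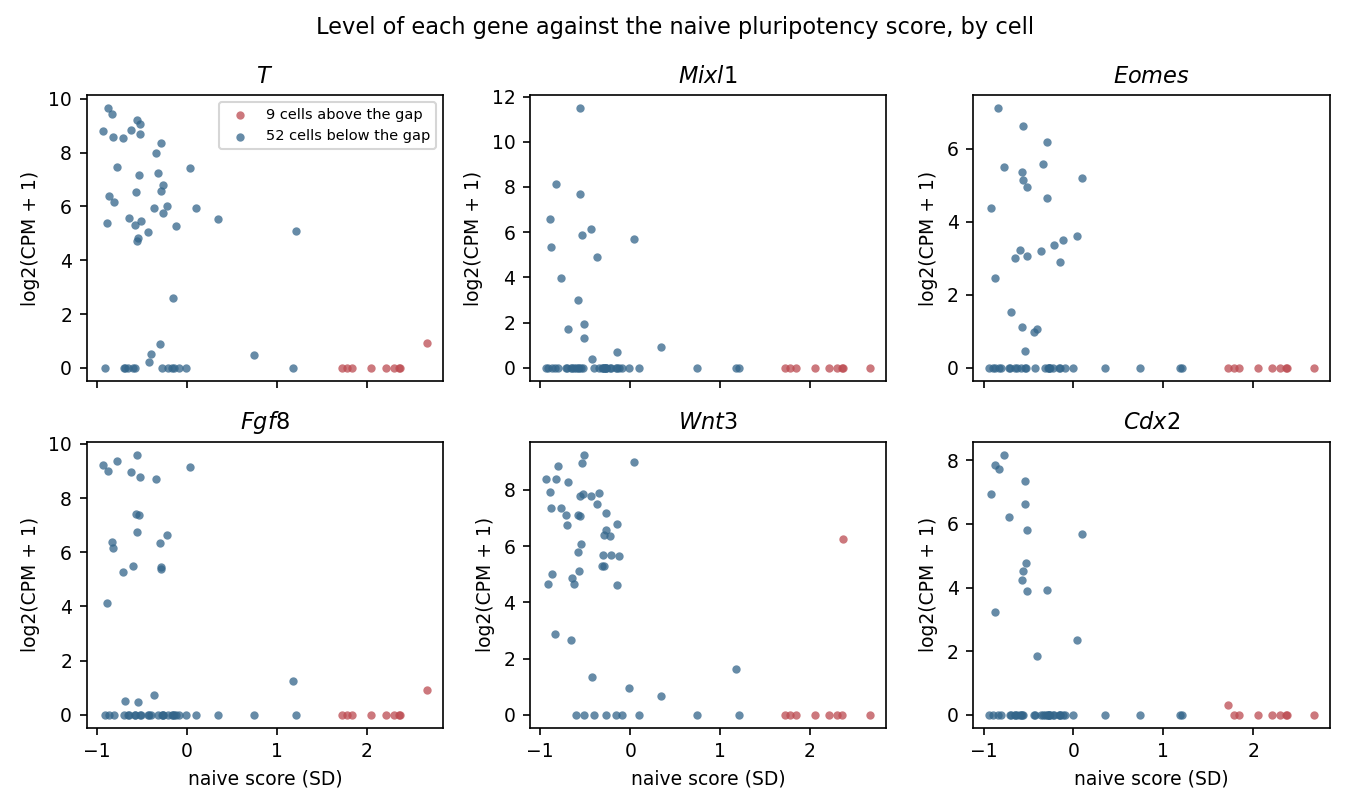
Level of each gene (vertical axis, log2(CPM + 1)) against the naive pluripotency score (horizontal axis, SD units), 1 point for each of 61 cells, with the 9 cells above the gap in red and the 52 below it in blue. Mixl1 and Eomes are at 0 in all 9 red cells, and 1 red cell, H10, has a Wnt3 level of 74.9 CPM.

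A part of the pluripotency genes ran against the 6. In the 52 cells, 4 of 13 naive genes were at -0.3 or less with the mean z-score of the 6, where 3.42% of tested genes were. They were Tdh (-0.47), the threonine dehydrogenase of mouse stem cells, Zfp42 (-0.36), Klf5 (-0.33) and Manba (-0.33); Nanog was at 0.19. Over all 61 cells 11 of 13 were, a count that includes the 9 cells above the gap. Of 10 general pluripotency genes, 5 were at -0.3 or less in the 52 cells: Rif1 (-0.53), Dppa4 (-0.48), Utf1 (-0.35), Sall4 (-0.34) and L1td1 (-0.33). Pou5f1 was at -0.28 and Sox2 at -0.21. Of 11 formative genes 1 was, the de novo methyltransferase Dnmt3b (-0.34), and the formative factor Otx2 was at -0.16.

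**Figure D5:**
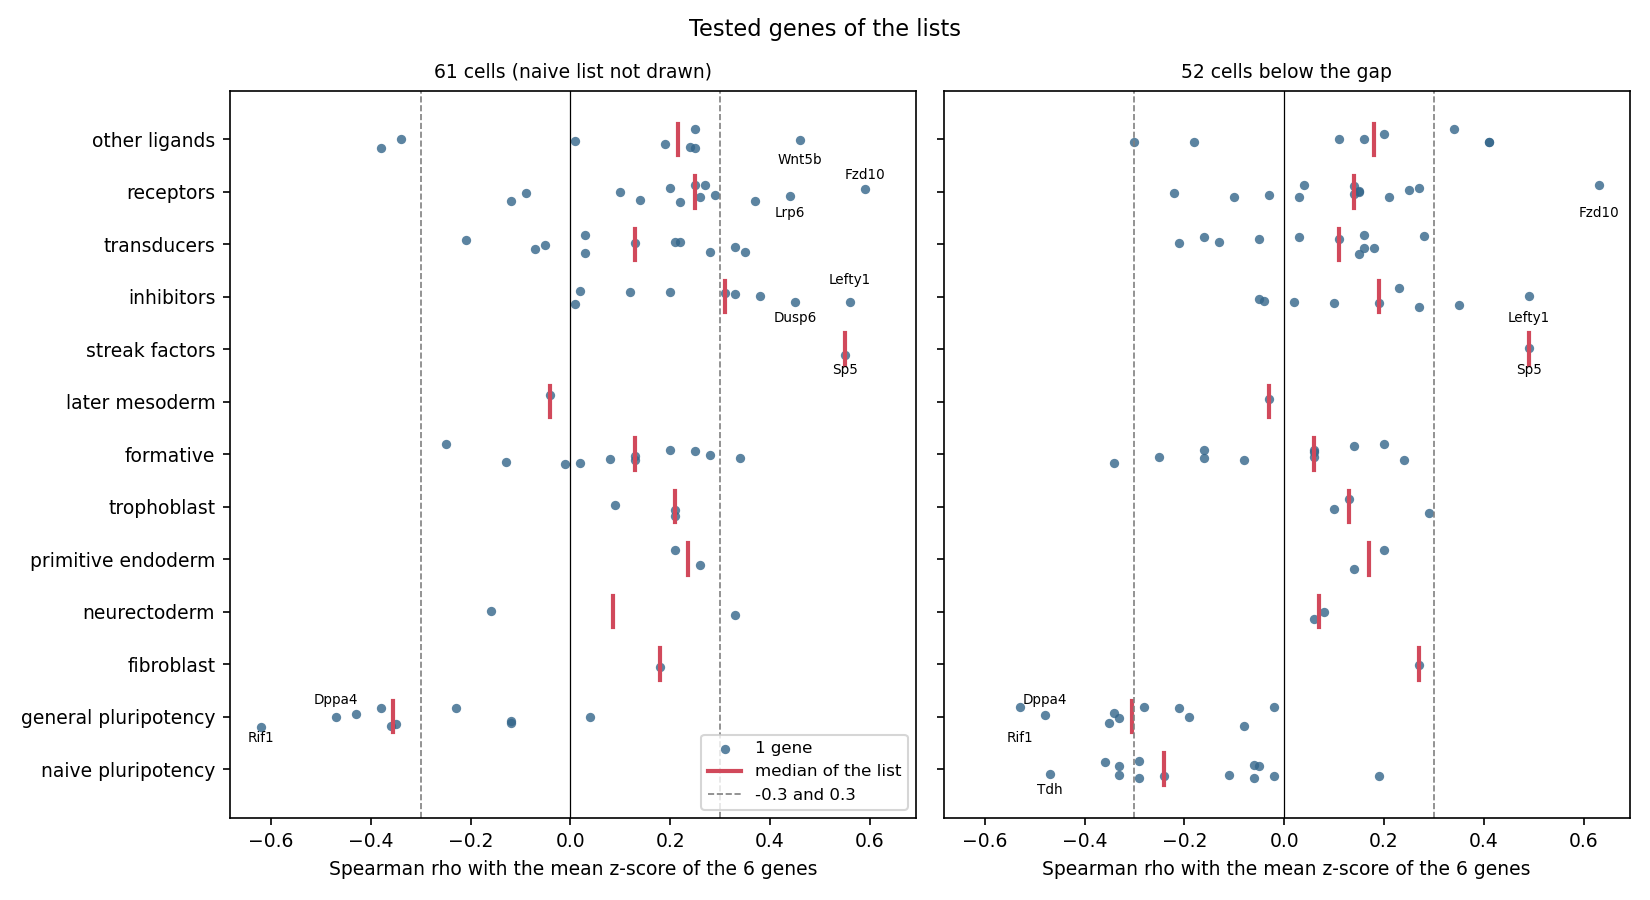
Spearman rho with the mean z-score of the 6 genes (horizontal axis) for the tested genes of each list (rows), over 61 cells on the left and over the 52 cells below the gap on the right; each point is a gene, red lines are medians and dashed lines mark -0.3 and 0.3. The naive list is drawn on the right panel only. Inhibitors lie to the right on the left panel, with a median of 0.31. Most general pluripotency genes lie to the left on both panels, and most naive genes lie to the left on the right panel.

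Markers of other cell types were read in the same cells, and some of the listed genes were at 0 in all of them. Of 14 trophoblast genes, listed because Cdx2 also marks trophectoderm, 3 passed the filter and none was at 0.3 or more. Elf5 and Prl3d1 were at 0 in all cells, while Ets2 had counts in 28, Tfap2c in 23, Gata3 in 20, Tead4 in 11 and Tfap2a in 11. Tfap2c reached 339 CPM, and the summed level of the list ran from 0 to 341 CPM (median 25.8). Of 15 primitive endoderm genes 2 passed, Dab2 (0.21) and Col4a1 (0.26); Ttr was at 0 in all cells, Gata4 had counts in 2 and Gata6 in 3, and the summed level ran from 0 to 213 CPM (median 6.32). Of 8 neurectoderm genes 2 passed, Nes (0.33) and Pax6 (-0.16); Sox1, Hes5, Neurog2 and Pax3 were at 0, and the sum ran from 0 to 587 CPM (median 32.9). Nes, an intermediate filament gene of neural progenitors and other cells, had counts in 47 cells. Of 10 fibroblast genes only Vim passed (0.18), with counts in 44 cells, while Col1a1 had counts in 7 cells and Acta2 reached 491 CPM in G03. The summed level of the fibroblast list ran from 0 to 1053 CPM (median 42.3), the widest range of these 4 lists. The part of such cells in the relations among the 6 genes was not tested.

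The genes most like the 6 were named by rank. The 15 with the highest rho with the mean z-score over 61 cells ran from 0.73 to 0.65. Among them were Tapbp (the peptide-loading factor tapasin), Serpinh1 (a collagen chaperone), Gbp2 and Gbp3 (guanylate-binding proteins), Psme2b and Psme2 (proteasome activator subunits), H2-K1 (a class I histocompatibility gene), Mir6381, Isg15 (a ubiquitin-like protein), Erap1 (a peptidase that trims class I peptides), Psmb10 and Psmb8 (proteasome subunits), Igfbp3 and Colec12. Tapbp was at 0.73 with all cells and 0.70 in the 52 cells. In the 52 cells the 15 ran from 0.70 for Tapbp to 0.52 for Colec12. The 10 with the lowest rho ran from -0.72 to -0.65 and were Chchd10, Rex2, Zfp534, Zfp981, Gm21411, Gm867, Mt2, Rpl10l, AU018091 and Zfp978. The Gbp, Psme2, H2 and zinc finger genes have near-identical copies, so their counts are uncertain.

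Single members had different nearest genes. Among the 3 genes closest to T were Tapbp (0.73) and Psme2b (0.68). Wnt3 was closest to Igfbp3 (0.77), S100a10 (0.72) and S100a11 (0.71), and Fgf8 to Isg15 (0.66), Gbp7 (0.64) and Alox15 (0.64). Mixl1 was closest to Wnt5b (0.66), Isg15 (0.63) and the homeobox gene Msx2 (0.58). Eomes was closest to Zfp746 (0.58), Stoml2 (0.52) and Fam213a (0.51), and Cdx2 to Dpp8 (0.57), Fbxl12 (0.53) and Tmem246 (0.52). Isg15 was thus the one gene among the first 3 of more than 1 member, Mixl1 and Fgf8.

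Depth and quality measures were set beside the 6 genes. Libraries held 2417702 to 6787261 gene counts (median 4244480), and 5317 to 10032 genes had counts. Over 61 cells the rho of the mean z-score of the 6 was 0.21 with genes detected, -0.07 with total counts, -0.17 with the mitochondrial share and 0.12 with plate column. It was 0.37 with the share of counts from chromosome 14, which ran from 1.32% to 3.75%; none of the 6 genes lies there, but Fgf17, Bmp4, Bmpr1a, Psme2, Klf5, Tdh and Otx2 do. Eomes had a rho of 0.34 with genes detected and -0.32 with total counts, while the other 5 ran from 0.01 to 0.22 with genes detected. The part of these measures in the relations was not tested.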

How the data were processed

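Counts per gene came from the table that the authors deposited as raw, with 36205 gene rows and 95 ERCC spike-in rows in 61 cells. The submitters' processing notes name bedtools 2.19.1, DESeq2, GSNAP and SAMtools 0.1.18, with the build GRCm38. How reads were counted, and with which annotation and strand setting, is not given in the sources used here. No label names molecular identifiers. The intervals are exact binomial intervals on shares of cells, so they cover the sampling of cells only. The normalized table was not used.

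Symbols (34880 rows) and coordinates were taken from GENCODE M21. CPM were computed over gene counts without ERCC rows, and log2(CPM + 1) was used for rho. Tested genes had 10 or more counts in at least 10 cells (10868). A value of 0.3 or more, or -0.3 or less, was the threshold. No test was run, since each sample is 1 cell and no label names separate cultures. For the naive score, z-scores of the tested listed genes were averaged and scaled to SD units, and the cells were split at its largest gap. The correlation step was tested on simulated data. Named genes were the 6 members, genes of the lists, the 15 highest and 10 lowest in rho with the mean of the 6, and the 3 nearest to each member. Some genes that this rule names are not reported here. The members, lists and thresholds were chosen with earlier results of these data known. The pairwise Pearson correlation of cells ran from 0.369 to 0.613. Tools were Python 3.11.15, scipy 1.17.1, scikit-learn 1.9.0, and, for alternative scalings, edgeR 4.0.16 and DESeq2 1.42.0. Other alternatives were the filter, pseudocount, correlation measure, thinning, a covariate, plate rows and left-out cells.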

Additional observations from a re-analysis of the deposited data

How the results depend on the processing

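The 6 detection counts, the median pairwise rho of the 6 genes (0.338; from 0.295 to 0.421 over the alternatives run), the 22 cells with 4 or more of them (21 without D07) and the 6 of 6 genes at 0.3 or more moved by less than the tolerances set (the 95% interval of a detection count, 0.1 for a rho and 1.5 times for a count) in each alternative run for them. The number of tested genes at 0.3 or more with the mean of the 6 was 818; it was 1231 in plate rows A to D, 1403 in rows E to H and 521 in the cells below the gap. At -0.3 or less it was 480; it was 880 in rows A to D and 834 in rows E to H, where fewer cells widen the spread of rho. The relation to the naive score was the least stable. Against 4 members at -0.3 or less, 2 were found with no filter, with 10 counts in 20 cells, with Pearson's r, with Zfp42 alone and without F07 and B10, and 0 in rows E to H and with Esrrb alone. The 354 tested genes at -0.3 or less became 223 with 10 counts in 20 cells, 658 with Pearson's r, 893 with residuals on the share of genes detected, 1151 in rows A to D, 698 in rows E to H, 205 with Esrrb alone and 732 with all cells as 1 set. Fgf8 changed sign, from -0.33 to 0.08 in rows E to H and 0.06 with Esrrb alone; the cause was not tested. Leaving out F07 and B10, and using the cells below the gap alone, were chosen after seeing the data. No paired analysis was possible because each sample is 1 cell of the same condition and no result comes from a test. A 0 limits the level in the sequenced library to about 0.707 CPM at the median depth, and does not limit the level in the cell.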
